A study of Mus musculus with 2 samples.

Results

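The 10 heat shock chaperone genes described here are Hsp90ab1, Hspa8, Hspd1, Hspe1, Hsp90aa1, Hsph1, Dnaja1, Dnajb1, Hspa1a and Hspa1b. They were taken by symbol from the 27998 genes of a matrix of unique molecular identifier (UMI) counts, each UMI standing for 1 captured transcript, and all 10 had UMIs in both libraries. The cells were multipotent progenitors (MPPs), bone-marrow cells that can still form both lymphoid and myeloid blood cells. They were sorted from the marrow of C57BL/6 mice by absence of lineage markers and by Sca-1, c-kit and CD34 with a Flt3 gate, 20 hours after thioglycollate, an irritant that sets off inflammation, was given into the peritoneum. The study has 2 samples, 1 of wild-type mice and 1 of Spp1-/- mice, which lack osteopontin in all cells. Both received thioglycollate, so no untreated cells were analysed here. Age, sex and the number of mice behind each sample are not given in the sources used here. Each sample is 1 library, so genotype, mice and library preparation cannot be told apart. No label ties a barcode suffix of the pooled matrix to a genotype. The cells of suffix 1 and suffix 2 are named library 1 and library 2. Ratios between them put library 2 on top and carry no direction by genotype.

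Heat shock proteins are molecular chaperones: they bind proteins that are not yet folded or have lost their fold, keep them from clumping and release them in cycles driven by ATP. The Hsp90, Hsp70 and chaperonin families are made in every cell at all times, and a subset of their genes is switched on by heat shock factor 1 (HSF1) when unfolded protein builds up. In single-cell work these transcripts are also known to appear when tissue is kept warm or digested before capture, together with immediate early genes such as Fos and Jun. From these textbook roles the genes were placed in 3 groups. Hsp90ab1, Hspa8, Hspd1 and Hspe1 are the constitutive group. Hsp90aa1, Hsph1 and Dnaja1 have a basal level and are also inducible. Dnajb1, Hspa1a and Hspa1b are named the strictly inducible group, a name for that role and not for their level here.

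After removal of barcodes with under 500 genes or at least 10% mitochondrial UMIs, 3253 cells of library 1 and 4570 cells of library 2 remained, with medians of 2830 and 3836 UMIs per cell. The barcode letters of 32 cells occurred in both libraries. Transcripts of the sorted surface markers were present: Cd34 stood at 413 and 457 CPM (UMIs scaled to 1000000 per library) and Flt3 at 122 and 141 CPM. Ly6a, the gene of Sca-1, stood at 311 and 294 CPM and Kit, the gene of c-kit, was lower at 36.1 and 36.6 CPM. Of the 4 T and NK cell genes in the matrix, Cd3e was at 0 UMIs in both libraries, and Nkg7 held nearly all of the 299 and 320 CPM of the list. Of 7 MHC class II and dendritic genes, 6 had UMIs, and they summed to 421 and 116 CPM. The 24 genes of G2 and mitosis summed to 1836 and 3049 CPM. Ratios within cells of like cycle range and without MHC class II cells are given with the results they touch. All intervals are 95% intervals for counting error only. They hold neither the difference between mice nor variation between cells beyond counting. UMIs come from transcript ends and are counted once per transcript, so levels of different genes are compared without a length term.

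Heat shock genes are known for short repeats before their starts, shown here because the members that carry them differ widely in level. HSF1 binds heat shock elements, inverted repeats of the block GAA, and GAANNTTC and TTCNNGAA are the 2 ways in which 2 such blocks can face each other. Windows of 250 bases before the gene start were found in RefSeq (build GRCm38.p6) for 7 of the 10 genes, and 6 of these 7 genes held at least 1 of the 2 motifs. The motifs read the same on both strands and may overlap. Of all 27025 genes with a window, 14.5% held either motif in at least 1 of their windows. Hspa1a and Hspa1b, a pair of nearly identical inducible Hsp70 genes, are printed whole because their windows match at 98.8% of 250 bases with 3 differences, while Hspa1a had several UMIs for each UMI of Hspa1b. Capitals mark the motif, which starts 104 bases before the start of both genes (chr17:34972157-34972406 and chr17:34959239-34959488, minus strand).
Hspa1a: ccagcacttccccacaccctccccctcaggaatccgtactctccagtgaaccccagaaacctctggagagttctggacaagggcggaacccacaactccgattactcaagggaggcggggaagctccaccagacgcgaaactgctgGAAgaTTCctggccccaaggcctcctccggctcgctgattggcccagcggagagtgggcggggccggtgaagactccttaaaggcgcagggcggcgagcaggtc
Hspa1b: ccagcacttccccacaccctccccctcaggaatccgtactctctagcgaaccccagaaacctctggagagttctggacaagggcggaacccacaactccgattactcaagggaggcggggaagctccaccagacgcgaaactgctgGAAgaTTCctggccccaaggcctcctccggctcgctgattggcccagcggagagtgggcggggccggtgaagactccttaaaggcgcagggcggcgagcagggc

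Hspe1 and Hspd1 stand head to head on chromosome 1, with gene bodies that overlap by 112 bases at their 5′ ends, and share 1 element in which blocks follow each other without a break. Motifs of 3 such blocks, GAANNTTCNNGAA or TTCNNGAANNTTC, were found in the windows of 0.514% of all genes and of 2 of the 7 genes, this pair. Hsph1 and Dnaja1 hold a motif of 2 blocks. The stretches of 30 bases around these elements are shown, with the blocks in capitals, because the constitutive pair carries the longest run of blocks among these windows. Their positions are chr1:55088053-55088082 (plus strand), chr5:149636351-149636380 (minus strand) and chr4:40722333-40722362 (plus strand).
Hspe1: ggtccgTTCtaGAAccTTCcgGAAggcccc
Hsph1: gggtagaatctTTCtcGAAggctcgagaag
Dnaja1: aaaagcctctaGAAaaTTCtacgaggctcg
Dnajb1, of the strictly inducible group, held neither motif in its windows, which says only that these letters are not there. By GENCODE M21 the Hspe1 element lies in annotated exons within the overlapping Hspd1 gene, and the Hsph1 and Dnaja1 elements lie inside Hsph1 and Dnaja1, whose starts are annotated further upstream there. The windows of Hspa1a and Hspa1b hold no annotated exon. A match is a description of sequence and not of binding.

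The constitutive genes gave most of the UMIs of the 10 genes in these progenitors. Hsp90ab1, the constitutive cytosolic Hsp90 (chr17:45567775-45573271 in GENCODE M21 on GRCm38), had 4755 CPM in library 1 and 5689.9 CPM in library 2. It was found in 99.7% and 99.9% of cells and gave 48.4% and 49.9% of the UMIs of all 10 genes. By CPM summed over both libraries it was the 29th gene of the matrix. Hspa8 (chr9:40800984-40810087), the constitutive Hsp70 that folds new proteins and strips clathrin coats, had 2004 and 2329 CPM and was found in 96.8% and 98.8% of cells. For Hspa8, 67.3% of the 50-base stretches of its transcript end also occur in other annotated genes, so its level depends on how such reads were counted. The 10 genes together held 0.982% and 1.14% of all UMIs.

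Hspd1 (chr1:55077835-55088243) and Hspe1 (chr1:55088132-55091307) encode Hsp60 and its lid Hsp10, the chaperonin of the mitochondrial matrix. Hspe1 had 849 and 802 CPM in the 2 libraries, and Hspd1 469 and 545 CPM. Hspe1 therefore gave 1.81 UMIs (1.75 to 1.87) per UMI of Hspd1 in library 1 and 1.47 (1.43 to 1.51) in library 2. These are unequal levels from genes that share 1 start region, and their ratio to each other differed between the libraries by more than counting error. Of the 50-base stretches at the end of Hspe1, 43.8% occur in other genes, among them copies named as its pseudogenes. Hspd1 had none.

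The genes with both a basal and an induced level spanned a wide range. Hsp90aa1, the inducible cytosolic Hsp90 (chr12:110690605-110702728), had 1386 CPM in library 1 and 1637 CPM in the other. It was found in 89.0% and 94.4% of cells. Its constitutive sister Hsp90ab1 was 3.43 times as abundant (3.37 to 3.50) in library 1 and 3.48 times (3.43 to 3.52) in library 2, and these intervals overlap. Dnaja1 (chr4:40722150-40737149), a J-domain protein that hands substrates to Hsp70, had 221 and 246 CPM. Hsph1 (chr5:149614287-149636376), an Hsp110 that exchanges nucleotide on Hsp70, had 34.4 and 55.9 CPM, and 9.93% and 19.2% of cells held a UMI of it. To compare cells at 1 depth, 2000 UMIs were drawn at random from each of 2444 and 4016 cells, and 809 and 554 shallower cells were set aside. In these thinned cells the shares were 6.71% and 9.44%.

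Of the strictly inducible genes, Hspa1a and Hspa1b were at the bottom of the order and Dnajb1 lay above Hsph1. Dnajb1 (chr8:83608193-83612653), the J-domain partner of Hsp70 that rises on heat shock, had 82.3 CPM (76.8 to 88.1) in library 1 and 95.8 CPM (91.5 to 100.4) in library 2. Hspa1a, an inducible Hsp70 (chr17:34969190-34972156), had 15.02 CPM (12.7 to 17.6) and 8.53 CPM (7.26 to 9.96). Hspa1b (chr17:34956436-34959238), 9951 bases from it, had 2.77 CPM (1.84 to 3.999) and 1.55 CPM (1.04 to 2.22). The 3 genes summed to 100.1 and 106 CPM, against 8078 and 9367 CPM for the 4 constitutive genes. Dnajb1 gave 833 of the 1013 UMIs of this sum in library 1 and 1797 of 1986 in library 2. Results for the sum therefore mostly describe Dnajb1, which was found in 21.5% and 31.1% of cells. Per UMI of Hspa1a there were 133 UMIs of Hspa8 (114 to 158) in library 1 and 273 (234 to 321) in library 2. Hspa1a gave 5.43 and 5.52 UMIs per UMI of Hspa1b, with intervals of 3.61 to 8.44 and 3.70 to 8.50. No 50-base stretch at the ends of either gene occurs elsewhere among the annotated transcripts, so the pair could be told apart there.

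**Figure D1:**
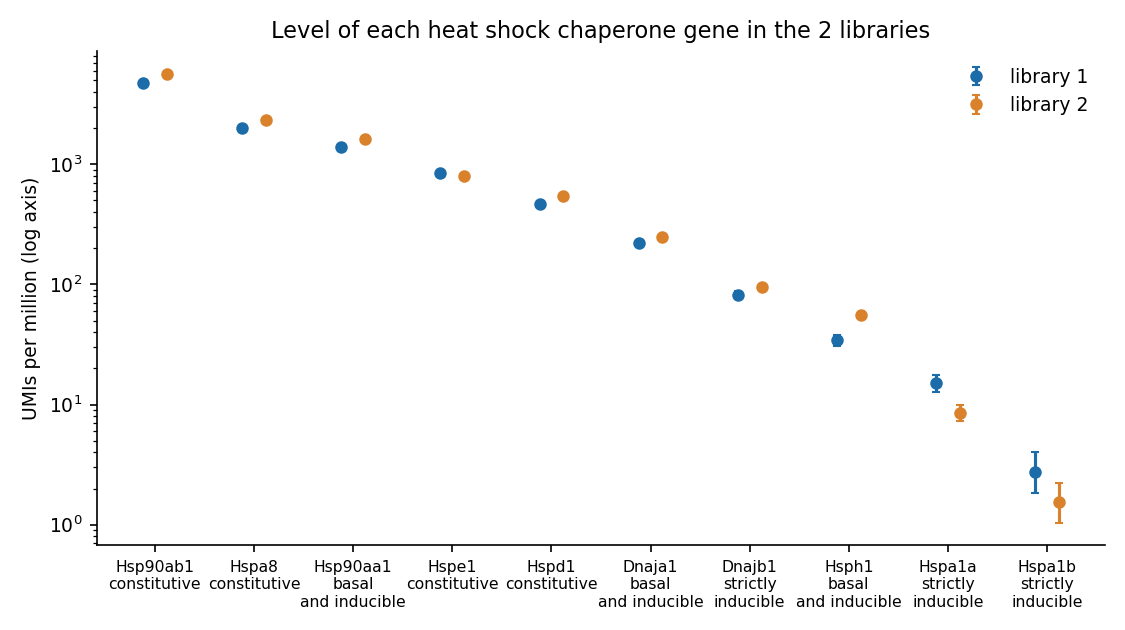
Level of each of the 10 genes in CPM on a log axis, blue for library 1 and orange for library 2, with exact Poisson 95% bars and the group of each gene under its name. The order by level was the same in both libraries, from Hsp90ab1 at 4755 and 5689.9 CPM to Hspa1b at 2.77 and 1.55 CPM.

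Strictly inducible transcripts were each found in a minority of cells, mostly at 1 UMI per cell. Hspa1a was found in 121 cells of library 1 (3.72%, 3.10 to 4.43) and 138 cells of library 2 (3.02%, 2.54 to 3.56). After thinning the shares were 2.82% and 1.64%. Of the cells with Hspa1a, 97 and 118 held 1 UMI, 17 and 19 held 2, and 7 and 1 held 3 or more. No cell held over 3 in library 1 or over 4 in library 2. Cells with Hspa1a had medians of 3309 and 4787.5 UMIs in all, against 2830 and 3836 in all cells. No cell type here is known to lack Hspa1a, so the share that free RNA gives could not be set beside these values. For Dnajb1, 19 and 56 cells held 3 or more UMIs, and the most in a cell were 6 and 5. Barcodes of library 1 below the gene minimum, 59 in number, held 1 UMI of Hspa1a.

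Between the libraries, 3 of the 10 genes lay past 1.5-fold. Hsph1 was higher in library 2, at a log2 ratio of 0.70 (0.53 to 0.88). Hspa1a and Hspa1b were lower, at -0.82 (-1.15 to -0.49) and -0.84 (-1.64 to -0.04). Of all 10099 genes with at least 50 UMIs, 4.79% were at least 1.5-fold higher and 2.46% at least 1.5-fold lower. With 1 library per genotype these ratios have no replicate check and carry no test. The interval of Hsph1 reaches below 1.5-fold and those of both Hspa1 genes reach above its inverse. In cells thinned to 2000 UMIs Hsph1 was at 0.53 (0.27 to 0.80), below 1.5-fold, and Hspa1b, with 17 and 12 UMIs, fell under the minimum for a gene.

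The other 7 genes stayed near the ratio of genes in general. The median log2 ratio over all genes tested was 0.11, with 80% of genes between -0.26 and 0.44, and the median of the 10 genes was 0.22. Hsp90ab1 was at 0.26 (0.24 to 0.27), Hsp90aa1 at 0.24 (0.21 to 0.27), Hspa8 at 0.22 (0.19 to 0.24) and Hspd1 at 0.22 (0.17 to 0.27). Dnajb1 was at 0.22 (0.10 to 0.34) and Dnaja1 at 0.15 (0.08 to 0.23). Hspe1 was the only abundant gene on the other side, at -0.08 (-0.12 to -0.04). The constitutive sum stood at 0.21 (0.20 to 0.23) and the strictly inducible sum at 0.08 (-0.03 to 0.19), and Dnajb1 and the Hspa1 pair within that sum had opposite signs. With normalization factors computed over all genes (TMM, in edgeR) the inducible sum was at -0.01 and the constitutive sum at 0.12, a shift that moved the median of all genes to 0.02. Hspa1a and Hspa1b stayed negative and Hsph1 positive under each scaling tried.

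**Figure D2:**
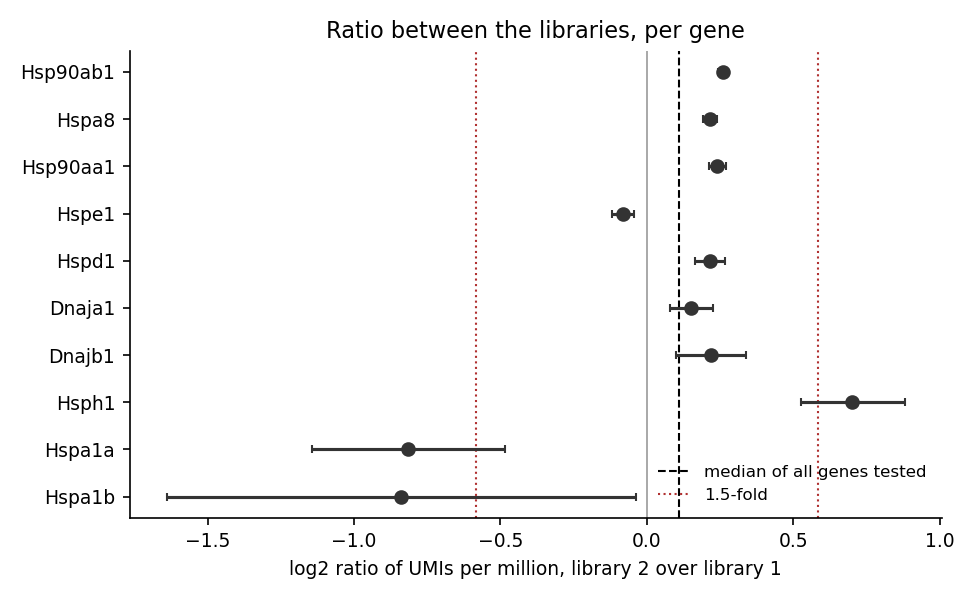
Log2 ratio of CPM, library 2 over library 1, for each gene with its 95% counting interval. The dashed line is the median of all genes tested (0.11), the dotted lines are 1.5-fold, and only Hsph1 on the right and Hspa1a and Hspa1b on the left lie beyond them.

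The libraries differed in cycling cells and in MHC class II cells, and the ratios were therefore looked at within such cells. In thinned cells low in both cycle lists, Hspa1a had 12 UMIs in 352 cells of library 1 and 3 UMIs in 380 cells of library 2. In cells of G2 and mitosis it had 15 UMIs in 238 cells and 15 in 834. In S cells the order was the other way, with 8 UMIs in 520 cells and 26 in 1153, a log2 ratio of 0.55 (-0.63 to 1.91). The log2 ratio was -2.11 (-4.58 to -0.22) in low cycle cells and -1.81 (-2.94 to -0.67) in cells of G2 and mitosis, and the difference between ranges was not tested. Cells with at least 5 MHC class II list UMIs, 52 in library 1 and 38 in library 2, held 5 and 0 UMIs of Hspa1a. Without them the log2 ratio of Hspa1a was -0.78 (-1.11 to -0.45) and that of Hsph1 0.70 (0.52 to 0.88). Hsph1 was at 0.02 (-0.88 to 0.92) in low cycle cells and at 0.53 (0.03 to 1.05) in S cells, from 22 against 24 and 44 against 141 UMIs. In G2 and mitosis cells it was at 1.40 (0.35 to 2.66), from 8 against 74 UMIs.

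Hsp90aa1, Hspd1 and Hspe1 were higher in cells with S-phase transcripts than in cells low in cycle transcripts, in both libraries, and Hsp90ab1 differed little. Thinned cells were split by 24 S-phase genes and 24 genes of G2 and mitosis. S cells had at least 10 S-phase UMIs and under 10 of G2 and mitosis (520 and 1153 cells), G2 and mitosis cells had at least 10 of the latter (238 and 834 cells), and low cycle cells had at most 4 S-phase and at most 1 G2 and mitosis UMI (352 and 380 cells). These are ranges and not types: 154 and 305 cells stood exactly at the S minimum and 200 and 350 cells lay 1 UMI below it. Before thinning, median depth was 2527 and 2590.5 UMIs in low cycle cells, 3166.5 and 4047 in S cells and 3924.5 and 5225 in G2 and mitosis cells.

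Hsp90aa1 had 754 UMIs in the low cycle cells and 1692 in the S cells of library 1, a ratio per cell of 1.52 (1.39 to 1.66). In library 2 it had 796 and 4137 UMIs, a ratio of 1.71 (1.59 to 1.85). It was the 1 member of 8 with enough UMIs that was at least 1.5-fold higher in S cells in both libraries. Of 3552 genes with enough UMIs, 7.15% were. Its log2 ratio, 0.60 and 0.78, stayed between 0.47 and 0.92 in both libraries over the alternatives tried, and under 3 of them it missed 1.5-fold in 1 library. Hsp90ab1, its constitutive sister, was at 1.09 (1.04 to 1.14) and 1.11 (1.08 to 1.16). Hsp90aa1 therefore gave 18.9% and 16.8% of the UMIs of the Hsp90 pair in low cycle cells and 24.6% and 23.7% in S cells, with intervals that do not overlap within either library. Before thinning, a low cycle cell held on average 3.14 and 3.17 UMIs of Hsp90aa1 and an S cell 5.78 and 7.91.

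The mitochondrial chaperonin followed in the same direction. Hspd1 was higher in S cells at ratios of 1.39 (1.21 to 1.61) and 1.62 (1.43 to 1.85), and Hspe1 at 1.25 (1.12 to 1.39) and 1.41 (1.27 to 1.57). Hspa8 was at 1.19 (1.11 to 1.28) in library 1 and 1.06 (0.999 to 1.11) in library 2. Hsph1 was at 1.35 (0.79 to 2.37) and 1.94 (1.25 to 3.12) on few UMIs. Dnaja1 stood at 1.07 and 1.09 with intervals that include 1. The strictly inducible sum was at 1.16 (0.84 to 1.60) and 1.02 (0.80 to 1.30), so no difference was detectable at this depth. The median log2 ratio of all genes with enough UMIs was 0.12 and 0.10, and that of the 8 members 0.36 and 0.33.

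Along the number of S-phase UMIs, among cells below the G2 and mitosis minimum, Hsp90aa1 was higher in cells with more of them. In library 1 it had 1017 CPM at 0 to 2 UMIs, 1326 at 3 to 5, 1466 at 6 to 8, 1617 at 9 to 11 and 1610.2 at 12 or more. Library 2 had 1016, 1456, 1625, 1751 and 1812 CPM in the same bins. The libraries were alike in the lowest bin, and the step from it was the largest in both. Hsp90ab1 spanned 4559 to 5082 CPM over these bins in library 1 and 5345 to 5763 CPM in library 2. Hspd1 went from 379 to 566 CPM at 9 to 11 UMIs in library 1 and from 365 to 635 CPM in library 2. Median depth before thinning was 2564 and 2552 UMIs in the lowest bin and 3113 to 3297 and 3398 to 4066 in the others, and its part in the steps was not tested.

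**Figure D3:**
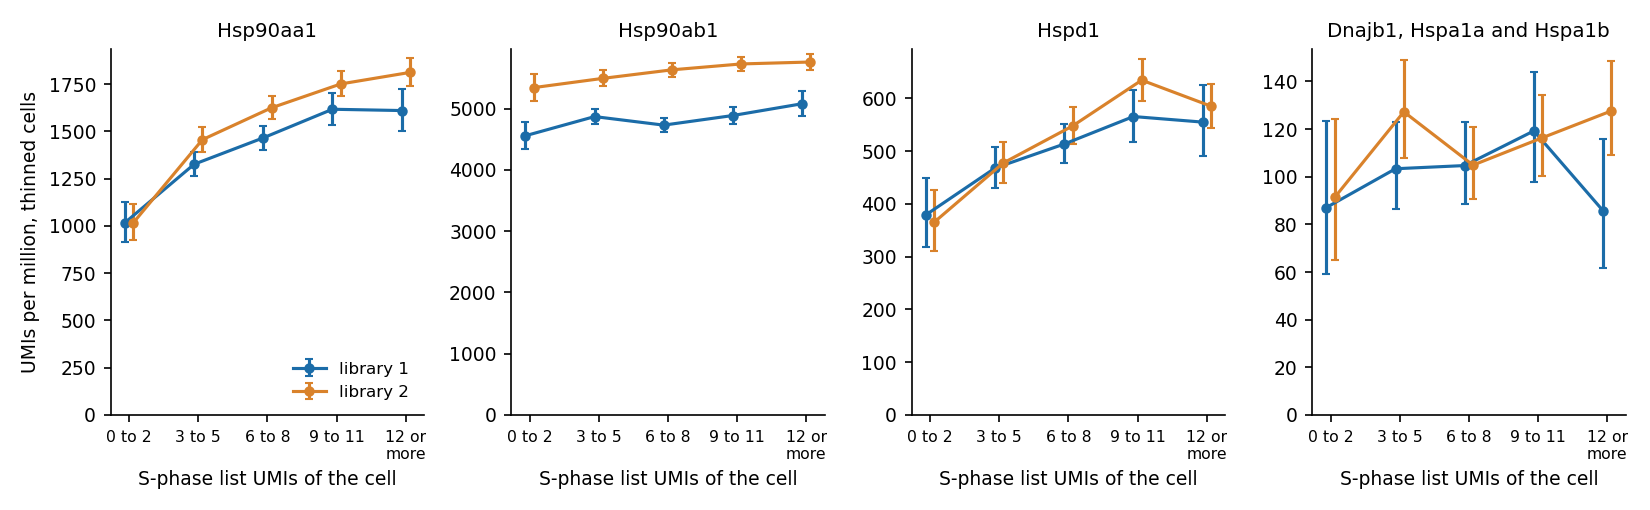
CPM in thinned cells against the number of S-phase list UMIs of the cell, for cells with under 10 UMIs of G2 and mitosis, with exact Poisson 95% bars (blue, library 1; orange, library 2). Hsp90aa1 and Hspd1 climb from the lowest bin, Hsp90ab1 is nearly flat, and the inducible sum has bars too wide to order its bins.

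In G2 and mitosis cells the ratios of Hsp90aa1, Hspd1 and Hspe1 to low cycle cells were smaller than those in S cells. Hspa8 was at 1.20 (1.11 to 1.30) and 1.102 (1.04 to 1.17), not below its ratios in S cells. Hsp90aa1 was at ratios of 1.28 (1.15 to 1.42) and 1.46 (1.35 to 1.59) and Hsp90ab1 at 1.06 (1.01 to 1.12) and 1.11 (1.06 to 1.15). None of the 7 members with enough UMIs was past 1.5-fold in both libraries, where 7.16% of 2695 genes were past it in either direction. The median log2 ratio of these genes was 0.07 and 0.06, and that of the 7 members 0.09 and 0.14. Hspd1 was at 0.87 (0.72 to 1.06) in library 1 and 1.19 (1.03 to 1.37) in library 2, and Hspe1 at 0.98 (0.86 to 1.13) and 1.28 (1.15 to 1.43). The library 2 values of both turned to the other side with a minimum of 20 G2 and mitosis UMIs, from log2 ratios of 0.25 and 0.36 to -0.39 and -0.18. The value of Hspd1 kept its sign in 5 of 7 alternatives and that of Hspe1 in 6 of 7. Within low cycle cells, the log2 ratio of library 2 over library 1 was -0.03 (-0.18 to 0.11) for Hsp90aa1, against 0.14 (0.06 to 0.22) in S cells, 0.16 (0.04 to 0.29) in G2 and mitosis cells and 0.16 (0.12 to 0.21) over all thinned cells. For Hsp90ab1 it was 0.18 (0.11 to 0.24) in low cycle cells, 0.21 (0.16 to 0.26) in S cells, 0.23 (0.17 to 0.30) in G2 and mitosis cells and 0.23 (0.20 to 0.25) over all. S cells made up 21.3% and 28.7% of the thinned cells of the 2 libraries and G2 and mitosis cells 9.74% and 20.8%, and the part of these shares in the ratios was not tested.

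Immediate early transcripts, the first genes switched on by signals or stress, were scarce. The list of Fos, Fosb, Jun, Junb, Egr1, Ier2, Dusp1, Zfp36, Atf3 and Nr4a1 summed to 323 CPM in library 1 and 279 CPM in library 2. Of thinned cells, 1385 and 2422 had none (low cells) and 359 and 532 had at least 2 (high cells), of which 255 and 365 had exactly 2. High cells were shallower before thinning, at medians of 3012 and 3392 UMIs against 3343 and 4290.5, and in library 2 they had a median of 1 G2 and mitosis UMI against 4 in low cells. Values among cells with at most 1 G2 and mitosis UMI are given below, and the part of these differences was not tested further. Genes of the list differed between the libraries in opposite directions. Fos had 78.8 and 55.2 CPM, Jun 43.7 and 27.6, Zfp36 49.2 and 30.9, Fosb 23.7 and 9.12 and Dusp1 12.8 and 6.61. Junb, at 47.2 and 59.3 CPM, Ier2, at 45.5 and 66.7, and Egr1, at 20.2 and 22.5, were higher in library 2. Atf3 and Nr4a1 stood at no more than 1.88 CPM.

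The summed constitutive genes were slightly lower in cells high in immediate early transcripts. The ratio of the inducible sum was not stable over the alternatives tried in either library. The strictly inducible sum had 267 UMIs in low and 96 in high cells of library 1, a ratio per cell of 1.39 (1.09 to 1.76). In library 2 it had 533 and 137 UMIs, a ratio of 1.17 (0.96 to 1.41). The log2 value of 0.47 in library 1 became 0.12 with another random thinning, 0.21 without MHC class II cells, 0.14 without the 5% of cells with the most UMIs and -0.08 with cells thinned to 1500 UMIs. It was highest, at 0.57 (0.05 to 1.06), among cells with at most 1 G2 and mitosis UMI. In library 2 the log2 value of 0.23 stayed positive under each alternative. It ran there from 0.01 (-0.41 to 0.43) among cells with at most 1 such UMI to 0.42 (0.07 to 0.75) at 1500 UMIs. No link is read from these values. Dnajb1 was at 1.34 (1.02 to 1.75) and 1.18 (0.96 to 1.44), and its log2 value of 0.42 in library 1 was 0.02 with another random thinning and -0.13 with cells thinned to 1500 UMIs. Hspa1a was at 1.83 (1.002 to 3.24) in library 1, from 40 and 19 UMIs, and at 0.95 (0.41 to 1.98) in library 2, from 43 and 9. Its log2 value of 0.87 in library 1 ran from 0.10 to 0.99 over the 6 alternatives with enough UMIs. Its 38.5 CPM in the 104 cells of library 1 with 3 or more immediate early UMIs rested on 8 UMIs.

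None of the 9 members with enough UMIs was past 1.5-fold in both libraries, where 1.21% of 5351 genes were past it in either direction. The constitutive sum was at 0.94 (0.91 to 0.97) and 0.95 (0.93 to 0.98). As log2 ratios these were -0.09 and -0.07, beside a median of -0.02 in both libraries over all genes with enough UMIs. Within it Hspd1 was at 0.87 (0.77 to 0.98) and 0.86 (0.78 to 0.95), Hsp90ab1 at 0.94 (0.90 to 0.97) and 0.95 (0.92 to 0.97) and Hspe1 at 0.94 (0.85 to 1.02) and 0.88 (0.81 to 0.95). Hspa8 was at 0.96 (0.91 to 1.02) and 1.02 (0.97 to 1.06), with intervals that include 1. Hsp90aa1 was at 0.98 (0.91 to 1.05) in library 1 and 0.82 (0.77 to 0.86) in library 2, where high cells also had fewer UMIs of G2 and mitosis. Among cells with at most 1 such UMI its log2 ratio in library 2 was -0.18 (-0.31 to -0.06), against -0.29 in all thinned cells. Over cells, correlations of each member with the immediate early sum ran from -0.09 to 0.05 on log1p UMIs of 2444 and 4016 cells that share a library, and are given as a description. Cells with both an inducible and an immediate early UMI numbered 213 and 332, against 192 and 318 for the product of the separate shares. Taken gene by gene, cells with Jun held 1.35 (1.01 to 1.77) and 1.09 (0.82 to 1.42) times the inducible UMIs of cells without it, and cells with Ier2 0.93 (0.66 to 1.26) and 1.25 (1.04 to 1.4997). The intervals of the other 8 genes include 1 in both libraries, among them Fos at 1.23 (0.95 to 1.57) and 0.995 (0.79 to 1.24) and Zfp36 at 1.30 (0.96 to 1.73) and 0.85 (0.62 to 1.14).

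**Figure D4:**
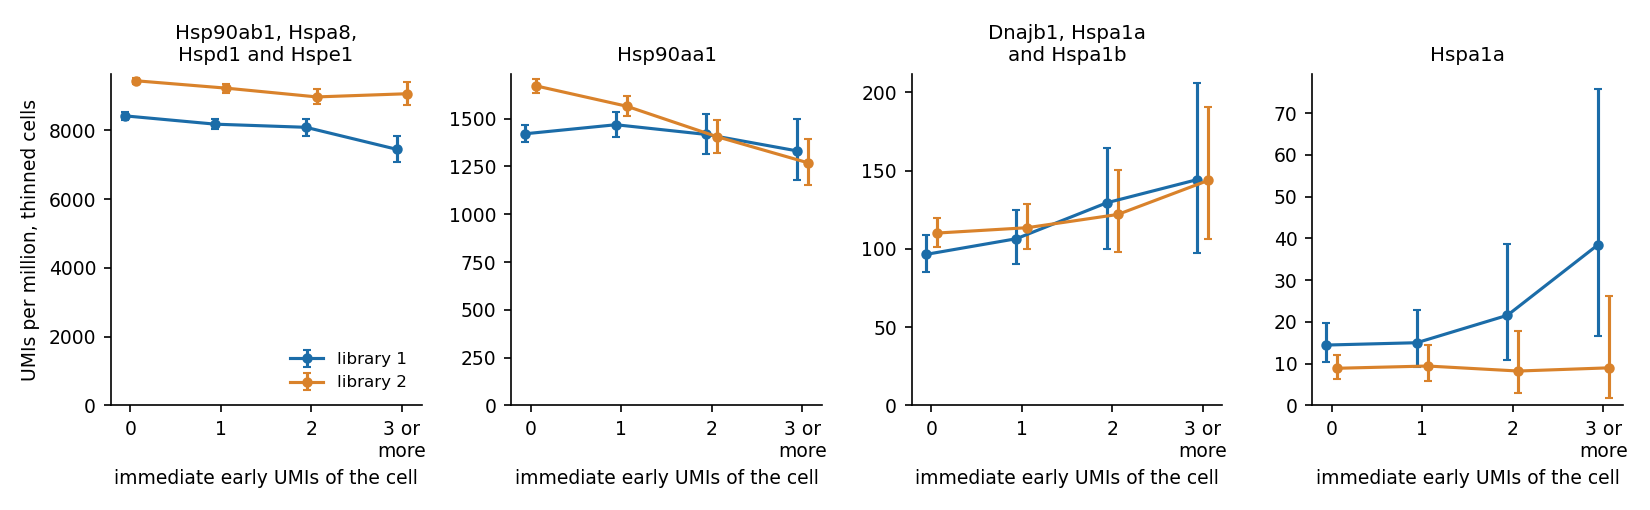
CPM in thinned cells with 0, 1, 2 or 3 or more immediate early UMIs, for the constitutive sum, Hsp90aa1, the strictly inducible sum and Hspa1a, with exact Poisson 95% bars (blue, library 1; orange, library 2). Hsp90aa1 goes down in library 2, and the bars of the inducible genes overlap between most bins.

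Across lineage ranges the chaperone genes were nearly level. A cell was placed in a range where its UMIs of a lineage list reached the 90th percentile of both libraries pooled and were at least 2, and cells in several ranges, 207 and 447, were set aside. In the megakaryocyte and erythroid list this minimum was 2 UMIs, and 238 and 468 cells stood exactly at it. Each list was led by 1 gene: Dntt held 81.6% of lymphoid UMIs, Prtn3 75.3% of granule myeloid, Irf8 72.2% of monocyte and dendritic, Ifitm1 93.6% of stem and Car2 96.2% of megakaryocyte and erythroid UMIs. The ranges are therefore cells high in these genes. They were compared with 1262 and 1928 cells in no range.

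None of the 8 members with enough UMIs was past 1.5-fold in the same direction in both libraries in any of the 5 ranges. Over all genes with enough UMIs, the share past it in either direction was 4.72% for the lymphoid, 1.98% for the granule myeloid, 5.65% for the monocyte and dendritic, 2.69% for the stem and 1.28% for the megakaryocyte and erythroid range. The median log2 ratio of all these genes lay between -0.07 (lymphoid, library 2) and 0.02 (granule myeloid, library 1). Hsp90aa1 was lower in lymphoid cells at ratios of 0.85 (0.77 to 0.94) and 0.86 (0.80 to 0.92). It was also lower in stem cells at 0.91 (0.83 to 0.99) and 0.84 (0.78 to 0.91) and in megakaryocyte and erythroid cells at 0.85 (0.78 to 0.92) and 0.87 (0.82 to 0.92). Median G2 and mitosis UMIs were 1 and 2 in lymphoid cells and 1 in stem cells of both libraries. They were 2 and 3 in megakaryocyte and erythroid cells, against 2 and 4 in cells of no range. Median S-phase UMIs were 6 and 6, 6 and 7, and 7 and 7 in that order, against 7 and 8. The 8 alternatives included cells with at most 1 G2 and mitosis UMI. Over them the log2 ratio of Hsp90aa1 in library 2 stayed negative in each of these ranges. It ran from -0.23 to -0.15 in lymphoid, -0.35 to -0.17 in stem and -0.25 to -0.08 in megakaryocyte and erythroid cells. The part of the cycle was not tested further. In library 1 the log2 ratio of Hsp90aa1 in lymphoid cells, -0.24, became 0.04 with cells thinned to 3000 UMIs, and that in stem cells, -0.14, became 0.06 without the 5% of cells with the most UMIs.

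Hspd1 was higher in granule myeloid cells, at 1.24 (1.09 to 1.41) and 1.27 (1.14 to 1.40), and these cells were the deepest before thinning, at 4243.5 and 5632 UMIs. Its log2 ratio was 0.31 in library 1 and 0.02 there with ranges at the 75th percentile, and 0.34 in library 2 and 0.11 there with cells thinned to 3000 UMIs. Hspa8 was at 1.09 (1.01 to 1.18) and 1.09 (1.03 to 1.15) in lymphoid cells, opposite to Hsp90aa1 in the same cells. Hspe1 was at 0.91 (0.80 to 1.03) and 0.81 (0.73 to 0.89) there. Hsp90ab1 stayed between 0.92 and 1.04 in all 5 ranges of both libraries. Dnajb1 and Hsph1 had intervals that include 1 in every range, and Hspa1a and Hspa1b had too few UMIs to compare. With another random thinning the log2 ratio of Hspa8 in lymphoid cells of library 1 was -0.02, against 0.13 here.

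**Figure D5:**
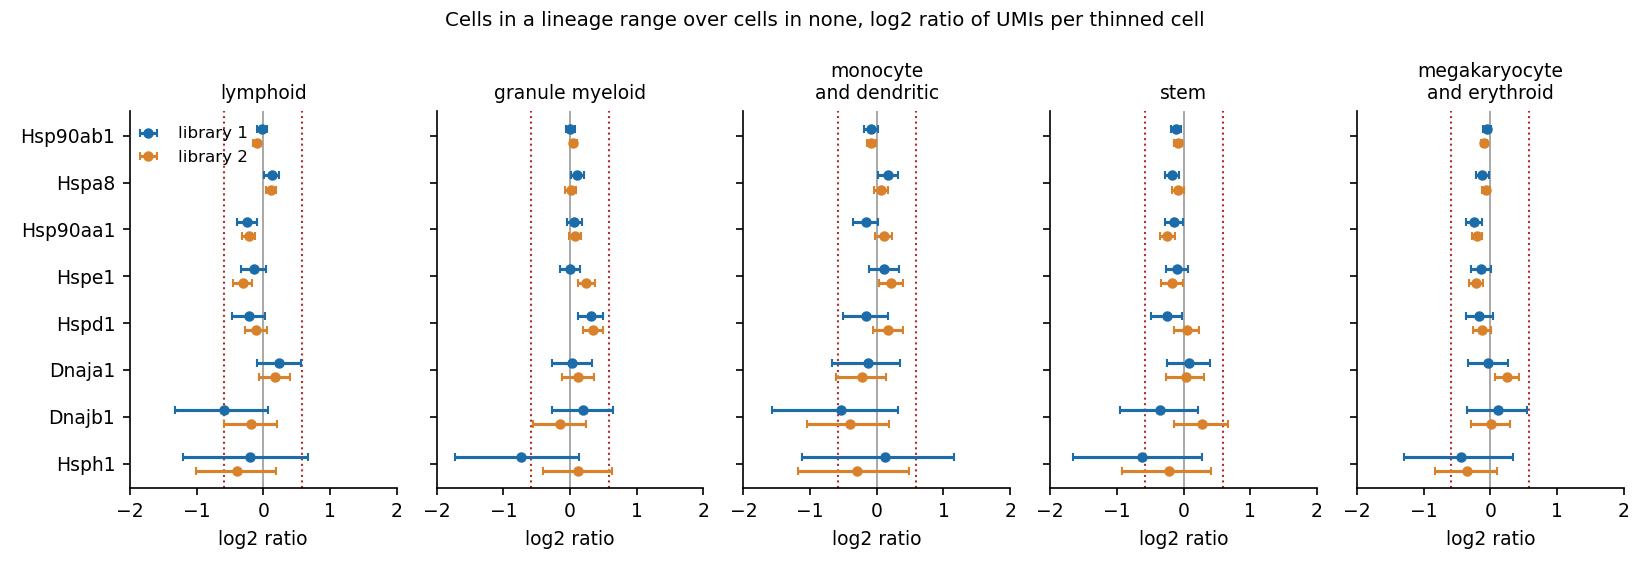
Log2 ratio of UMIs per thinned cell in each of 5 lineage ranges over cells in no range, for 8 genes with 95% counting intervals (blue, library 1; orange, library 2). Dotted lines mark 1.5-fold, and no gene lies beyond them on the same side in both libraries.

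The members varied little with each other from cell to cell. The correlation of log1p UMIs over thinned cells was 0.15 in library 1 and 0.14 in library 2 for the Hsp90 pair, and no pair of members exceeded 0.15. Hsp90aa1 stood at 0.11 and 0.13 with Hspd1 and at 0.11 and 0.14 with Hspe1, and Hspd1 with Hspe1 at 0.08 and 0.09. Hspa1a and Hspa1b, with their matching windows, shared 1 cell in library 1 and 0 cells in library 2, against 0.45 and 0.20 cells for the product of their shares. Hspa1a and Dnajb1 were found together in 12 and 9 cells, against 10.6 and 12.03 for the product of their shares, so no excess of shared cells was detectable at this depth.

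Counting noise alone gives a variance equal to the mean, a Fano factor of 1. Thinned UMIs of the abundant genes had Fano factors of 1.42 and 1.51 for Hsp90ab1, 1.49 and 1.51 for Hspa8 and 1.44 and 1.41 for Hsp90aa1. Those of Dnajb1 were 1.08 and 1.04 and those of Hsph1 1.01 and 1.04. Hspa1a stood at 1.27 and 1.15 with at most 3 and 2 UMIs in a thinned cell. The middle 80% of cells held 5 to 15 and 6 to 17 UMIs of Hsp90ab1 and 1 to 6 of Hsp90aa1.

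The genes most like the constitutive sum from cell to cell were only weakly correlated with it at this depth, where counting noise lowers such values. Among 3699 genes found in at least 5% of cells of each library, the highest lower-of-2 correlations belonged to Slc25a5, the mitochondrial ADP and ATP carrier (0.18 and 0.23), Ldha, lactate dehydrogenase (0.19 and 0.16), Ptma (0.24 and 0.15), Npm1, a nucleolar chaperone (0.20 and 0.15), and Ncl, nucleolin (0.19 and 0.15). Ranbp1, Eif5a, Mif, Tuba1b and Atp5b followed. For the strictly inducible sum the 10 highest, led by Ciapin1 and Usp7, reached at most 0.06, which in counts this sparse is no finding.

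Of 77 distinct genes tested in 8 lists of other chaperone and stress genes, 4 were at least 1.5-fold higher in library 2 (5.19%, beside 4.79% of all genes) and 2 at least 1.5-fold lower (2.60%, beside 2.46%), shares near the background. Among 11 Hsp90 cochaperones in the matrix, Ahsa1, the activator of the Hsp90 ATPase, was higher in library 2 at 101 and 202 CPM, a log2 ratio of 1.003 (0.90 to 1.104). Stip1, which links Hsp70 to Hsp90, was at 0.36, Fkbp4 at 0.29, Ppid at 0.15 and Cdc37, which brings kinases to Hsp90, at 0.08. The median of this list was 0.26. Among other J-domain genes 1 of 15 was lower, Dnajb14 at 63.4 and 31.8 CPM, a log2 ratio of -0.997 (-1.16 to -0.83), and the list had a median of 0.09. The most abundant of them, Dnajc8, Dnajc9 and Dnajc15, were at 0.09, 0.32 and 0.04, and Dnajb11 of the endoplasmic reticulum was at 0.40.

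The subunits of the TRiC chaperonin, which folds actin and tubulin, lay close together, above most genes of its partner prefoldin. The 7 measured TRiC subunits lay between log2 ratios of 0.27 for Cct3 and 0.38 for Cct8, with Cct5 at 0.28 and Cct7 at 0.30. Prefoldin genes lay between -0.11 for Pfdn1 and 0.10 for Pfdn6, with Pfdn5, the most abundant, at -0.03, apart from Vbp1 at 0.28. None of the 13 was past 1.5-fold. Of 12 chaperones of the endoplasmic reticulum, 2 were higher, Pdia3 at 125 and 194 CPM (0.64, 0.54 to 0.73) and Sdf2l1 at 89.6 and 139.7 CPM (0.64, 0.53 to 0.75). Hspa5, the Hsp70 of that compartment, was at 0.38, Pdia6 at 0.36 and Calr at 0.14. Mitochondrial chaperones had a median of 0.22, with Hspa9 at 0.30, Trap1 at 0.30, Grpel1 at 0.18 and Clpp at 0.13, and none past 1.5-fold.

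HSF1 itself was at 26.4 and 25.1 CPM (Hsf1, -0.07), and none of the 7 tested genes of the HSF1 and Hsp70 regulator list was past 1.5-fold. Hsbp1, which binds HSF1 trimers, was at -0.19, St13 at 0.04 and the ubiquitin ligase Stub1 at 0.54. Bag3, an HSF1 target in many cells, was at 3.36 and 4.48 CPM. Other Hsp70 and Hsp110 genes had a median of 0.27, with Hspa4 at -0.04, Hspa14 at 0.23, Hspa4l at 0.45 and Hspa2 at 0.72 (-0.01 to 1.503) from 21 and 64 UMIs, the 1 of 6 past 1.5-fold. Among small heat shock and stress genes, Hspb1 and Hspb8 had 0 UMIs in both libraries and were not compared. Such a count does not exclude a low level. Hmox1, haem oxygenase, was the 1 of 7 tested that was lower, at 34 and 31 UMIs (-1.02, -1.77 to -0.28). Mt1, a metallothionein, was at -0.38 and Ubb, a ubiquitin gene, at -0.22.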

How the data were processed

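Per the labels, RNA of sorted bone-marrow progenitors was captured in droplets with the 10x Single Cell 3' chemistry, 1 library for each of 2 samples. Cell Ranger 1.1 and the build mm10 appear in the submitters' processing notes. The treatment of reads that match several genes is not known here. The authors deposited UMI counts (unit: count) for both libraries in 1 matrix of 7884 barcodes, and libraries were separated by barcode suffix.

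Barcodes with at least 500 genes and under 10% mitochondrial UMIs were kept. Sums of UMIs over the cells of a library were scaled to 1000000 (CPM). The kept cells held 10118499 and 18750468 UMIs. Genes with at least 50 UMIs and 1 in each library were compared, and a ratio of at least 1.5 or its inverse was called. Comparisons between cells used cells thinned to 2000 UMIs (seed 1) and genes with at least 50 UMIs in each library over both ranges. Levels carry Poisson, shares Clopper-Pearson and ratios conditional exact 95% intervals. No test was run, because each genotype has 1 library and cells of a library are not replicates. Doublets were not called. On simulated counts the intervals held the set ratio for 95.7% of 10101 genes between libraries and for 95.8% of 3000 genes between ranges. These counts were drawn with counting noise only, as the intervals assume, so they check the calculation alone. Abundant members varied more between cells, with Fano factors of 1.42 and 1.51 for Hsp90ab1. Their intervals may be too narrow.

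The members and lists were chosen with earlier results of these data known. All members are named, and of each other list the 3 genes with the most UMIs and the 2 with the largest absolute log2 ratio. Pfdn1, Pfdn6, Vbp1, Cct3, Hsf1, Hspb1 and Hspb8 were named outside that rule after their values were seen. A gene that the rule names is not reported here. Alternatives covered scaling, filters, thinning and the cut-offs of the ranges. Promoter windows came from RefSeq, and gene positions and transcript ends from GENCODE M21. Python 3.11.15, numpy 2.4.6, scipy 1.17.1, pandas 2.3.3 and edgeR 4.0.16 were used.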

Additional observations from a re-analysis of the deposited data

How the results depend on the processing

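No paired analysis was possible because each genotype has 1 library and the labels give no replicate numbers. Of 91 ratios of members and groups whose interval leaves out 1, 74 kept their sign under every alternative run, among them all 12 ratios between the libraries and all 14 of S over low cycle cells. The 17 others changed sign under at least 1 alternative: 12 of lineage ranges, 3 of G2 and mitosis and 2 of immediate early cells. The log2 ratio of the constitutive sum between the libraries, 0.21, was 0.12 with TMM factors, 0.12 without ribosomal protein and mitochondrial genes, 0.17 in cells thinned to 2000 UMIs and 0.19 with at least 1000 genes and under 5% mitochondrial UMIs. In thinned cells 0 members were at least 1.5-fold higher, since Hsph1 stood at 0.53. Only 1 member was at least 1.5-fold lower in thinned cells, with a minimum of 200 UMIs per gene or without the 5% of cells with the most UMIs, because Hspa1b then had too few UMIs.

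The S over low cycle ratio of Hsp90aa1, log2 0.60 and 0.78, was 0.76 and 0.92 in cells thinned to 1500 UMIs and 0.47 in library 2 at 3000 UMIs. The count of members past 1.5-fold in S cells of both libraries, 1, was 0 at 3000 UMIs, 0 without the deepest 5% of cells, 0 with a minimum of 5 G2 and mitosis UMIs and 2, with Hsph1, under another seed. The immediate early ratio of the inducible sum in library 1, log2 0.47 (and 0.23 in library 2), was 0.12 with another seed and -0.075 at 1500 UMIs. Among cells with at most 1 G2 and mitosis UMI it was 0.57 in library 1 and 0.01 in library 2. At 1500 UMIs it was 0.42 in library 2. In lineage ranges 1 member was past 1.5-fold in both libraries without the deepest 5% of cells (Hsph1, megakaryocyte and erythroid, lower) and 1 with ranges at the 75th percentile (Dnajb1, monocyte and dendritic, lower). Values of single genes past 1.5-fold in 1 library that changed sign were Hsph1 in granule myeloid cells of library 1 (0.013 without the deepest 5%), Dnajb1 in lymphoid cells of library 1 (0.32 at 1500 UMIs), and Hspa1a and Hsph1 in stem cells of library 1 (0.11 and 0.70 without Ifitm1 in the stem list, an alternative chosen after seeing the data). The causes were not tested. Depth limits what can be said of Hspa1a and Hspa1b, at 369 UMIs in all.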
